A study of Danio rerio with 19 samples.

Results

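The comparison described here is between injured *yap1* Crispants and injured *wwtr1* Crispants, by bulk RNAseq of tail fin tissue. Its members are 4 *yap1* and 3 *wwtr1* libraries, chosen by their labels, out of 19 libraries in the series. Crispants are F0 zebrafish embryos injected with Cas9 and guide RNAs, so each animal carries a mosaic of mutations in the targeted gene and no stable line is involved. All 7 libraries came from WIK embryos wounded by severe tail fin amputation at 3 dpf and collected 24 h later, at 4 dpf, with the embryos of a library pooled. Injured WT embryos (3 libraries) and uninjured *yap1* Crispants, *wwtr1* Crispants and WT embryos (3 libraries each), of the same strain and also collected at 4 dpf, are used as context, and neither the labels nor the methods say whether the WT embryos had been injected. The labels call replicates biological, but do not say whether replicates, or injured and uninjured embryos, came from separate clutches or injections, so p-values measure the spread between these pools.

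Yap1 and Taz, the product of *wwtr1*, are paralogous transcriptional co-activators. The Hippo kinases, Lats1 and Lats2 among them, phosphorylate both and keep them out of the nucleus, and when released they bind Tead factors and switch on genes such as *ctgf* and *cyr61*. Both are known for roles in tissue growth and repair, and a direct comparison of the Crispants asks whether the wounded fin differs in transcript content with loss of one paralogue or the other.

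Library totals ran from 33560561 to 67747394 counts in injured *yap1* Crispants and from 28081131 to 47745975 in injured *wwtr1* Crispants. Levels are given as CPM, the counts of a gene as a rate of the TMM normalized library size, where a floor of 3 counts was worth between 0.0368 and 0.0966 CPM over the 7 libraries and covers counting error only. Genes are named by the symbol of the reference table. Upper-case symbols are of the human type, and several zebrafish genes can share one, so the Ensembl ID is given with them. Bulk libraries cannot tell apart fewer cells of a type and less RNA per cell.

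One *yap1* library stood apart. In injured *yap1* replicate 4 the lens marker list, 15 genes that encode mostly crystallins, summed to 193 CPM, against 2.18 to 3.07 CPM in the other *yap1* libraries, 1.51 to 2.53 CPM in *wwtr1* Crispants and 2.1 to 2.53 CPM in WT. Its defining genes were near 0 in the other 6 libraries compared. *CRYBB1* (ENSDARG00000068507) had 51.6 CPM in this library and at most 0.149 CPM in the other 6, and *cryba1b* (ENSDARG00000053875) had 38.9 CPM and at most 0.0857 CPM. The other 3 genes highest in this library over the rest were also crystallins, with 40.9 CPM for *cryba1l1*, 16.4 CPM for *crybb1l1* and 16 CPM for *crygm2d13*. Photoreceptor genes summed to 12.9 CPM there, against 1.39 to 1.79 CPM in the other *yap1* libraries and 2.16 to 2.56 CPM in *wwtr1* Crispants. Among the uninjured libraries, WT replicates 1 and 2 also had high lens sums, 153.8 and 57.1 CPM. Uninjured *wwtr1* replicate 1 had a photoreceptor sum of 35.02 CPM, above that of injured *yap1* replicate 4. How these transcripts bear on other genes was not tested beyond leaving injured *yap1* replicate 4 out. Over the 500 genes most variable among injured libraries, 32 of them crystallins, its Euclidean distance in log2 CPM to the other *yap1* libraries was 84.7 to 92.3, while those 3 libraries lay 32.6 to 46.2 apart. Results are therefore given with and without this library.

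**Figure D1:**
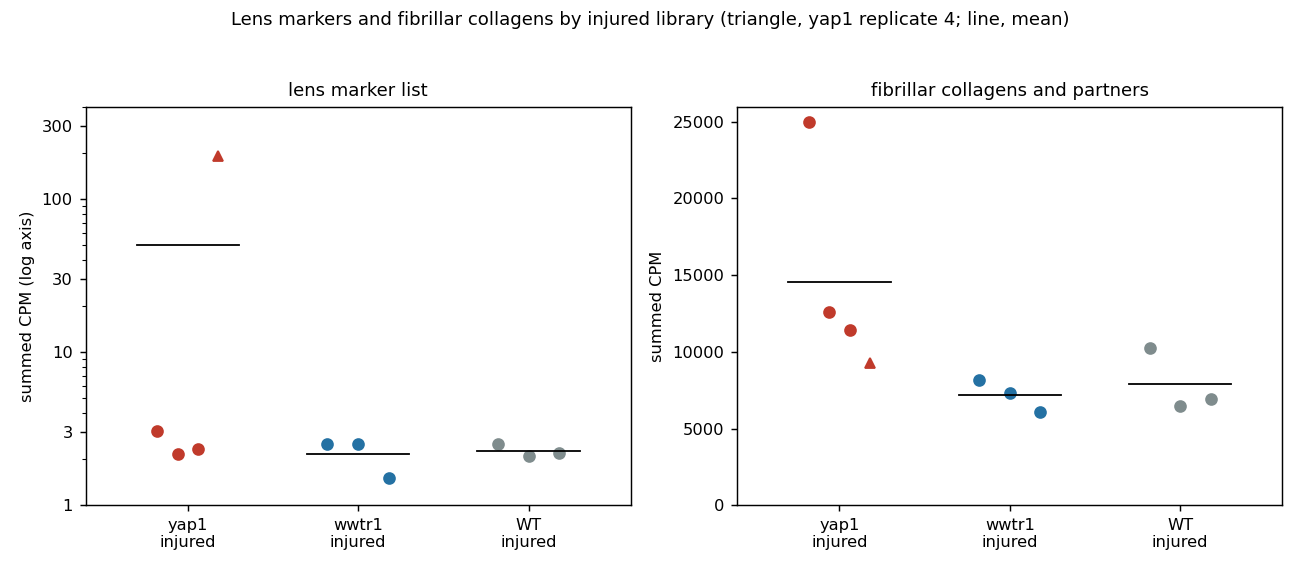
Summed CPM in each injured library for the lens marker list (left, log axis) and for fibrillar collagens and partners (right, axis from 0). Points are libraries, the triangle is *yap1* replicate 4 and the line is the group mean. Lens markers reached 193 CPM in *yap1* replicate 4 alone, while collagens ran from 9250 to 25000 CPM in *yap1* Crispants, above the 6110 to 8170 CPM of *wwtr1* Crispants.

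With all 7 libraries, no gene passed the edgeR test between injured *yap1* and injured *wwtr1* Crispants. DESeq2, which the study's methods name for differential expression, did call genes, as given below. EdgeR's quasi-likelihood test called 0 DEGs, taken as genes changed by more than 1 on the log2 scale in either direction at an adjusted p under 0.05, among 20979 genes tested, or 0%, and the smallest adjusted p was 0.0892. At an unadjusted p under 0.05, 763 genes (3.64%) were higher and 395 (1.88%) were lower in *yap1* Crispants. Without *yap1* replicate 4 the count of DEGs was again 0, with a smallest adjusted p of 0.257, and 453 genes (2.16%) were higher and 272 (1.3%) lower at an unadjusted p under 0.05. The call depended on another library and on the tool. Leaving out *yap1* replicate 3 gave 34 raised (0.162%) and 0 lowered DEGs in edgeR, and DESeq2 called 165 raised (0.584%) and 6 lowered (0.0212%) genes with all libraries. DESeq2 shares are of the 28239 genes to which it gave a p-value, or 28214 without *yap1* replicate 4, more genes than in edgeR. All 34 were among the 165. Of the 165, 25 were crystallin genes, and without replicate 4 DESeq2 called 43 raised (0.152%), of which 0 were crystallin genes, and 4 lowered (0.0142%). The raised sets with and without replicate 4 shared 40 genes, which is 24.2% of the larger and 93% of the smaller set.

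Distances over these 500 genes did not separate the groups. The median distance between a *yap1* and a *wwtr1* library was 50.4, and the median distance within the groups was 52.4, a ratio of 0.962. Without *yap1* replicate 4 the medians were 41.9 between and 46.6 within, a ratio of 0.9. For each injured library the nearest other one was of its own genotype in only 2 of 10 cases.

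The genes at the top of the ranking are a ranking and not calls. By rule they were those of smallest unadjusted p whose *yap1* and *wwtr1* libraries do not overlap. Over all genes tested, every *yap1* library lay above every *wwtr1* library for 536 genes (2.55%) and below for 542 genes (2.58%). Without *yap1* replicate 4, with fewer libraries to overlap, these were 834 (3.98%) and 873 (4.16%). Of the 6 ranked higher in *yap1* Crispants, 5 encode proteins that bind RNA and the other encodes a ubiquitin ligase. The share of RNA-binding genes among all genes tested was not counted.

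*G3BP2* (ENSDARG00000074572), which encodes a stress granule protein, led the ranking. It had 137, 105, 54.7 and 371 CPM in injured *yap1* Crispants, against 10.4, 23.6 and 13.3 CPM in injured *wwtr1* Crispants, with 63.6, 18.7 and 42.1 CPM in injured WT. The lowest *yap1* library was thus above the highest *wwtr1* library, and the WT libraries fell in the *yap1* range, in the *wwtr1* range and between them. The log2 fold change was 3.40 with an SE of 0.56 (edgeR adjusted p = 0.0892), and it was 2.65 without *yap1* replicate 4.

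*ewsr1b* (ENSDARG00000020465), a member of the FET family of RNA-binding proteins, had 25.9, 17.3, 10.6 and 32.3 CPM in injured *yap1* Crispants, against 2.61, 3.44 and 2.41 CPM in injured *wwtr1* Crispants. One WT library, with 17 CPM, was within the *yap1* range and the others, with 2.46 and 5.15 CPM, were near the *wwtr1* range. Its log2 fold change was 2.93, and 2.67 without replicate 4. *HNRNPAB* (ENSDARG00000007960), one of 2 genes with this symbol and a packaging protein of nascent transcripts, had 350, 265, 160 and 614 CPM against 68.5, 89.1 and 48.2 CPM in *wwtr1* Crispants, a log2 fold change of 2.34 and of 1.91 without replicate 4.

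The paralogues *KHDRBS1* (ENSDARG00000070475) and *khdrbs1a* (ENSDARG00000052856) encode Sam68-type splicing regulators. *KHDRBS1* had 44.2, 34.8, 22.7 and 52.8 CPM in *yap1* Crispants, against 14.1, 15.5 and 9.86 CPM in *wwtr1* Crispants. *khdrbs1a* had 218, 156, 129 and 337 CPM, against 62.9, 69.3 and 45.1 CPM. Their log2 fold changes were 1.56 and 1.83. *ARIH1* (ENSDARG00000003616), the ubiquitin ligase, had 18.5, 15.5, 11.4 and 25.4 CPM in *yap1* Crispants, against 6.12, 5.33 and 6.21 CPM in *wwtr1* Crispants, a log2 fold change of 1.59. In all 6 genes *yap1* replicate 4 was the highest and replicate 3 the lowest of the *yap1* libraries.

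Genes ranked lower in *yap1* Crispants differed less. *cpt1a2b* (ENSDARG00000037943), which encodes a carnitine palmitoyltransferase that admits long-chain fatty acids to mitochondria, had 7.41, 9.7, 8.14 and 5.86 CPM in *yap1* Crispants, against 17, 12.9 and 19.3 CPM in *wwtr1* Crispants. Its log2 fold change was -1.08 with an SE of 0.22 (edgeR adjusted p = 0.147). *MAPK8* (ENSDARG00000009870), a gene for the stress kinase Jnk1, had 6.46, 6.89, 4.4 and 4.31 CPM, against 13.3, 9.2 and 10.9 CPM in *wwtr1* Crispants. *GALNT4* (ENSDARG00000012745), which starts O-linked glycosylation, had 2.07, 3.13, 3.02 and 2.74 CPM, against 6.06, 4.89 and 4.47 CPM.

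The other 3 were *asmt2*, a gene of melatonin synthesis, with 1.38 to 1.97 CPM in *yap1* against 3.07 to 3.55 CPM in *wwtr1* Crispants, *si:dkey-182i3.8* with 1.1 to 1.71 against 2.29 to 3.51 CPM, and ENSDARG00000095312 with 1.38 to 2.64 against 3.58 to 5.26 CPM. Their log2 fold changes, and those of *MAPK8* and *GALNT4*, lay between -1.19 and -0.91 with edgeR adjusted p from 0.172 to 0.327. For all 6 genes ranked lower, the log2 fold changes without *yap1* replicate 4 lay between -1.06 and -0.89. DESeq2 called *cpt1a2b* and ENSDARG00000095312 as lowered with all libraries. The 4 genes it called as lowered without replicate 4, named here after their values were seen, were *EXOC5* (ENSDARG00000060323), *si:ch211-210b2.4*, ENSDARG00000095312 and ENSDARG00000103677.

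**Figure D2:**
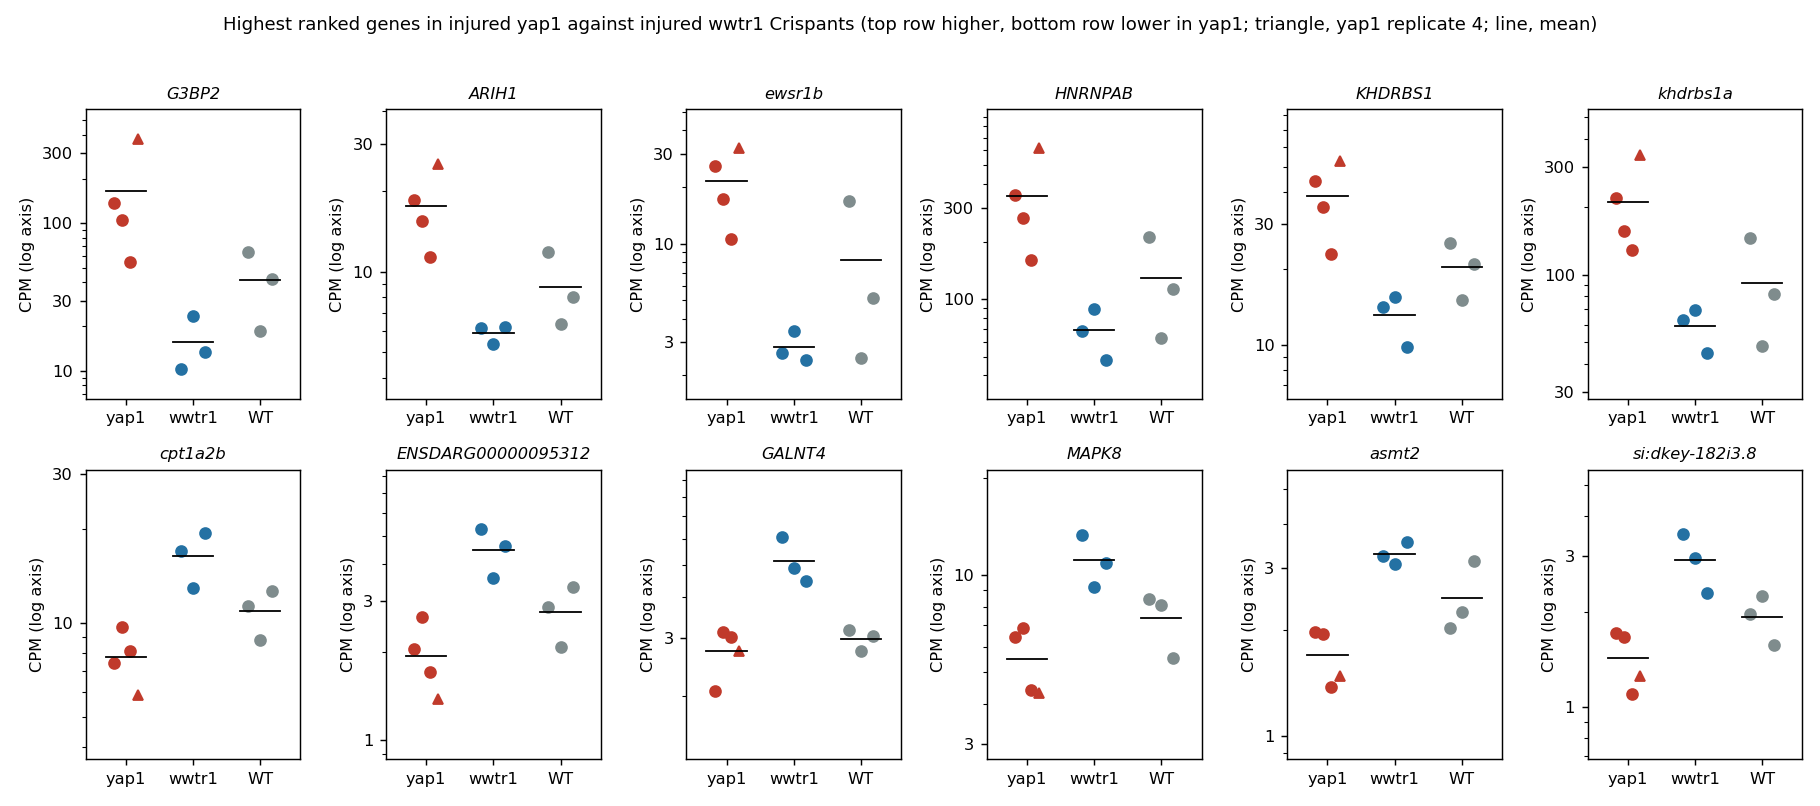
CPM in each injured library (log axes that differ by gene) of the 6 genes ranked higher (top) and the 6 ranked lower (bottom) in injured *yap1* than in injured *wwtr1* Crispants. Points are libraries, triangles are *yap1* replicate 4 and lines are group means. In the top row *yap1* libraries are spread out, with replicate 4 highest and replicate 3 lowest, and the *wwtr1* libraries lie close together.

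The same contrast was made in uninjured Crispants, whose libraries are not among the 7 compared but share the low-count filter and the estimate of spread with them in 1 fit. There edgeR called 174 genes raised in *yap1* over *wwtr1* Crispants (0.829% of genes tested) and 1 lowered (0.00477%), *osgn1*. After injury 170 of the 174 (97.7%) had a higher fitted level in *yap1* than in *wwtr1* Crispants, against 49.6% of all genes tested. At an unadjusted p under 0.05, 146 (83.9%) were higher, against 3.64% of all genes, and for 100 (57.5%) every *yap1* library was above every *wwtr1* library, a count that does not use the fitted spread, against 2.55%. Without *yap1* replicate 4 the numbers were 169 higher, 126 (72.4%) at an unadjusted p under 0.05 and 101 with no overlap, against 2.16% and 3.98% of all genes. The 4 exceptions, named after their values were seen, were *crp2*, *ATP8B1* (ENSDARG00000060980), *nlrp12l* and *selplg*.

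The size of these differences was compared as well. The median log2 fold change of the 174 genes was 1.48 injured (1.17 without replicate 4) and 2.4 uninjured, where the uninjured value was used to choose them. The direct test of a difference between injured and uninjured contrasts called 0 DEGs in edgeR (0%), with 530 genes at an unadjusted p under 0.05, and 1 in DESeq2, *crp2*. Among the 43 genes that DESeq2 called as raised after injury without replicate 4, 37 (86%) were among the 174, which is 21.3% of the 174. Of the 34 raised in edgeR without replicate 3, 32 (94.1%) were among them. Over all 20979 genes the injured and uninjured log2 fold changes had a Pearson correlation of 0.258 and a Spearman correlation of 0.22, or 0.158 and 0.111 without replicate 4. These are across genes, which are not independent.

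**Figure D3:**
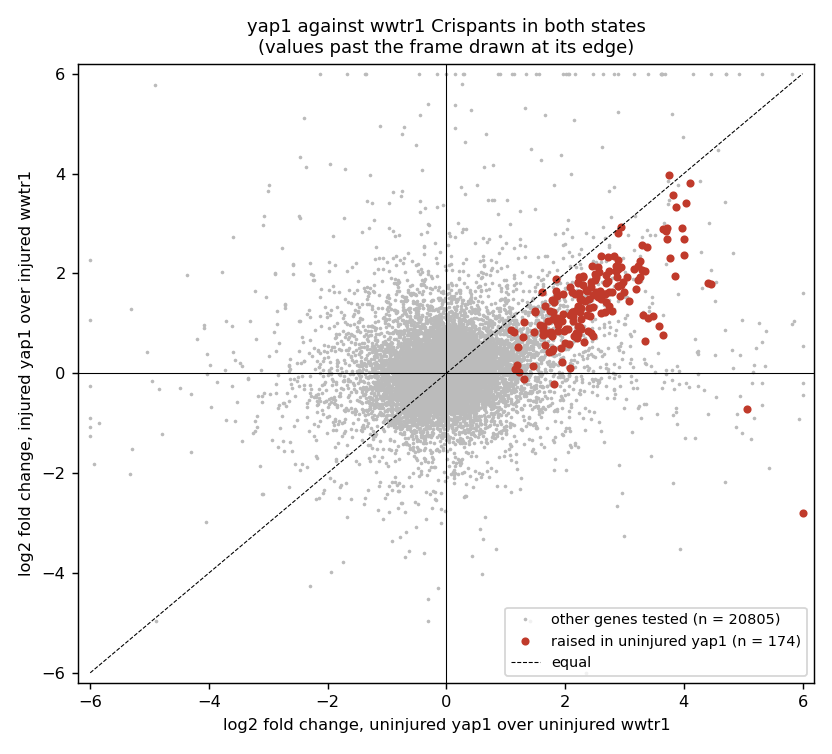
Log2 fold change of injured *yap1* over injured *wwtr1* Crispants (y axis) against that of uninjured *yap1* over uninjured *wwtr1* Crispants (x axis), 1 point per gene tested. The 174 genes raised in uninjured *yap1* Crispants (red, chosen on the x axis) lie above 0 on the y axis in 170 cases, mostly below the dashed line of equal values, and values beyond the axes are drawn at the edge.

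The 174 genes also show how the injured libraries are ordered. Summed over the genes, they had 10090, 7812, 5477 and 14690 CPM in injured *yap1* Crispants, 2844, 3705 and 2439 CPM in injured *wwtr1* Crispants and 6440, 2974 and 5166 CPM in injured WT. The *yap1* and *wwtr1* groups did not overlap, while WT overlapped both. Among the *yap1* libraries, replicate 4 was the highest for 112 genes and replicate 1 for 53, and replicate 3 was the lowest for 151. The mean of WT lay between the means of *wwtr1* and *yap1* Crispants for 150 of the 174 (86.2%). Neither this share nor the order of the *yap1* replicates was counted over all genes tested. The median log2 fold change of the 174 genes against injured WT was 0.93 for *yap1* and -0.47 for *wwtr1* Crispants. These 2 comparisons share the WT libraries. In uninjured fins the sums were 9198 to 11100 CPM in *yap1* Crispants, 1589 to 2128 CPM in *wwtr1* Crispants and 1190 to 2769 CPM in WT, so there the WT libraries overlapped the *wwtr1* libraries and lay below the *yap1* libraries. That *yap1* lay above *wwtr1* Crispants in uninjured fins was set by the choice of the genes.

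*G3BP2* follows this pattern. Before injury it had 139, 170 and 160 CPM in *yap1* Crispants, against 7.47, 12.1 and 9.2 CPM in *wwtr1* Crispants, while WT had 7.38, 12.3 and 15.8 CPM. *YBX1* (ENSDARG00000004757), a cold shock domain protein that binds mRNA, had 514, 298, 184 and 1480 CPM in injured *yap1* Crispants, against 93.1, 143 and 77.8 CPM in injured *wwtr1* Crispants, and 587 to 1015 CPM in uninjured *yap1* against 66.2 to 80.1 CPM in uninjured *wwtr1* Crispants. *CPSF6* (ENSDARG00000018618), a factor of mRNA 3′ end processing, had 84.8, 30.5, 12.1 and 234 CPM injured, against 5.79, 6.82 and 4.7 CPM. Its log2 fold change was 3.97, and 2.88 without *yap1* replicate 4.

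The hnRNP and SR families, which package transcripts and choose splice sites, were taken up after the values were seen, because some of their genes were among the DESeq2 calls, and they carry no test. By symbol, 42 genes belong to them and 41 were tested. Of these 30 were higher in injured *yap1* Crispants, against 49.6% of all genes. At an unadjusted p under 0.05, 13 were higher, against 3.64% of all genes, and 0 were lower, against 1.88%. For 10 of the 41 (24.4%) every *yap1* library was above every *wwtr1* library, against 2.55% of all genes. The genes called by DESeq2 are in these counts, so part of the excess was set by the choice. The median log2 fold change of the family was 0.21, and 0.17 without replicate 4, beside -0.003 over all genes, and the log2 fold changes ran from -0.43 to 2.89.

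*hnrnpa0b* (ENSDARG00000036162) had 472, 380, 212 and 678 CPM in injured *yap1* Crispants, against 51.7, 76 and 48.2 CPM in injured *wwtr1* Crispants and 342, 66.4 and 162 CPM in injured WT. Its neighbour in the ID order, *hnrnpa0l* (ENSDARG00000036161), had 437, 449, 340 and 680 CPM, against 76.5, 131 and 90.8 CPM in *wwtr1* Crispants. The pair are close paralogues, so reads could be divided between them uncertainly. One of the 2 *SRSF1* genes (ENSDARG00000057691), an activator of splicing, had 237, 255, 185 and 311 CPM, against 57.7, 93.9 and 73.2 CPM. Log2 fold changes were 2.89, 2.26 and 1.72, with edgeR adjusted p of 0.147, 0.163 and 0.17.

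Other members of the family were level. *hnrnpc* (ENSDARG00000053810), an abundant binder of nascent RNA, had 50.5, 53.6, 45.1 and 32.1 CPM in *yap1* Crispants, against 50.1, 46.1 and 47.1 CPM in *wwtr1* Crispants, with overlapping groups. *SRSF11* (ENSDARG00000098574) had 159, 166, 140 and 142 CPM, against 161, 147 and 159 CPM. The summed level of the family was 3200 to 5370 CPM in injured *yap1* Crispants, 2370 to 2420 CPM in injured *wwtr1* Crispants and 2580 to 3930 CPM in injured WT.

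Related genes outside these families, were also taken from the DESeq2 calls. *ncl* (ENSDARG00000002710), which encodes nucleolin of the nucleolus, had 488, 412, 235 and 510 CPM in *yap1* Crispants, against 94.3, 104 and 81.5 CPM in *wwtr1* Crispants. *U2AF1* (ENSDARG00000015325), which recognises the 3′ splice site, had 45.2, 47.4, 31.9 and 52.3 CPM, against 9.18, 16 and 8.86 CPM. *FUBP1* (ENSDARG00000029248), a regulator that binds single-stranded nucleic acid, had 88, 71.2, 55.8 and 69.9 CPM, against 27.5, 28.5 and 21 CPM. In these 3 genes the groups did not overlap and replicate 3 was the lowest *yap1* library.

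The Argonaute gene *AGO4* (ENSDARG00000100854) had 30.3, 27.8, 17.7 and 11.9 CPM in *yap1* Crispants, against 6.33 and 5.39 CPM in *wwtr1* replicates 1 and 3. The groups did not overlap, and here replicate 4 was the lowest *yap1* library and *wwtr1* replicate 2 the highest of its group. The zinc finger gene *CXXC5* (ENSDARG00000078865) overlapped between groups, with 45.1, 17.6, 7.83 and 51.4 CPM against 5.59, 8.53 and 3.74 CPM. The kinase gene *GSK3A* (ENSDARG00000015681) had 61.2, 28.2, 20.1 and 98.7 CPM, against 11.9, 16 and 11.6 CPM.

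**Figure D4:**
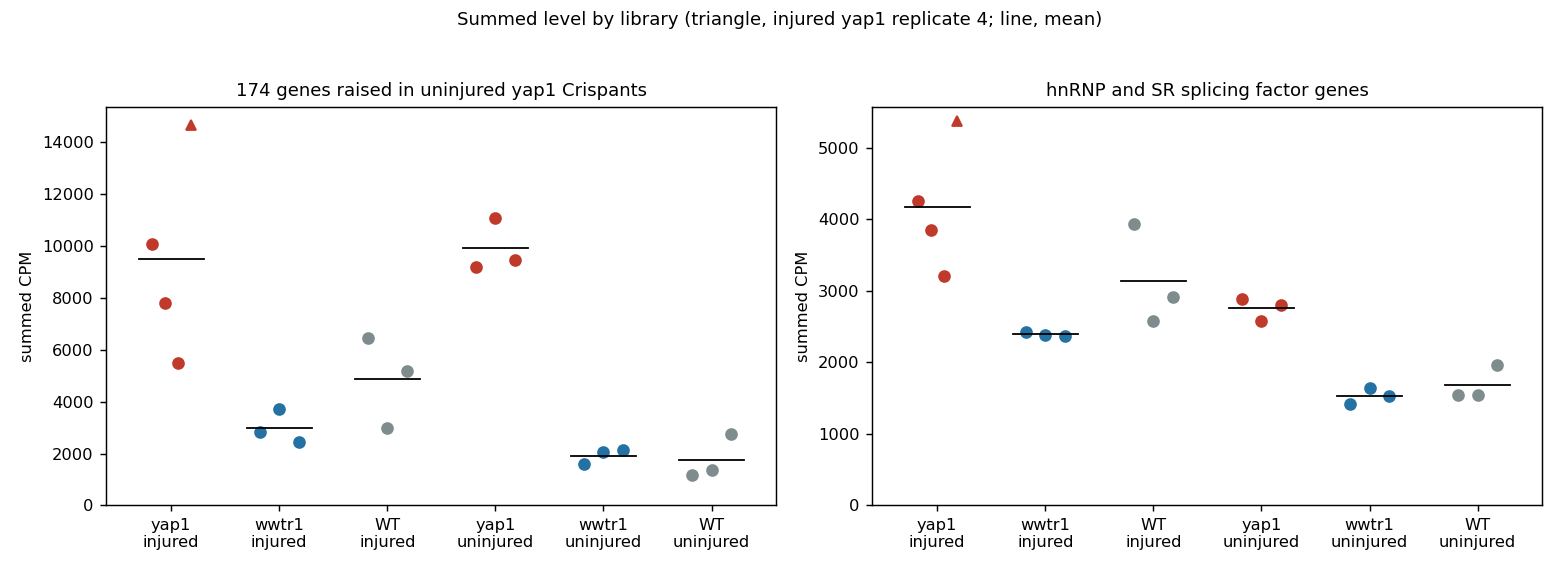
Summed CPM per library of the 174 genes raised in uninjured *yap1* over *wwtr1* Crispants (left) and of the hnRNP and SR families (right), for the 6 groups. Axes start at 0, points are libraries, the triangle is injured *yap1* replicate 4 and lines are group means. On both sides the injured *yap1* libraries lie above the injured *wwtr1* libraries, by a wide spread of 5477 to 14690 CPM against 2439 to 3705 CPM on the left.

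The targeted genes did not separate the groups. *yap1* (ENSDARG00000068401) had 136, 260, 193 and 182 CPM in injured *yap1* Crispants, against 268, 251 and 268 CPM in injured *wwtr1* Crispants, a log2 fold change of -0.44 with overlapping libraries (edgeR adjusted p = 0.972). *wwtr1* (ENSDARG00000067719) had 2.65, 1.52, 0.973 and 4.47 CPM in *yap1* Crispants, against 1.01, 0.444 and 1.24 CPM in *wwtr1* Crispants. Its log2 fold change was 1.41, and 0.94 without *yap1* replicate 4, and injured WT had 1.16, 0.764 and 0.523 CPM, as low as *wwtr1* Crispants. Small insertions and deletions change the coding sequence and need not change the transcript count, so these levels do not measure the knockout.

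Of the genes that Yap1 and Taz switch on, *cyr61* (ENSDARG00000023062), a matricellular protein gene, had 73.9, 21.5, 13.3 and 92.5 CPM in injured *yap1* Crispants, against 24.2, 19.4 and 6.53 CPM in injured *wwtr1* Crispants, with overlapping groups. Its log2 fold change was 1.59 (edgeR adjusted p = 0.681), and 1.12 without replicate 4. In uninjured fins it had 56.6, 97.6 and 68.3 CPM in *yap1* Crispants, against 12.7, 13.6 and 17.1 CPM in *wwtr1* Crispants (edgeR adjusted p = 0.0832). *AXL* (ENSDARG00000112045), a receptor kinase gene, had 4.48, 1.56, 0.307 and 5.73 CPM, against 1.34, 0.711 and 0.42 CPM.

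The other classical targets differed little. *ctgfa* had 22.9 to 51.9 CPM in *yap1* and 31.3 to 61.8 CPM in *wwtr1* Crispants, a log2 fold change of -0.16 that became 0.04 without replicate 4, and *ctgfb* had 7.27 to 20.3 CPM against 8.44 to 12.4 CPM. Of 19 target genes tested, 12 were higher, against 49.6% of all genes, and 2, *cyr61* and *AXL*, passed an unadjusted p of 0.05, against 3.64% of all genes, with a median log2 fold change of 0.15 (0.04 without replicate 4). Without replicate 4, 0 of 19 passed that level.

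Among 21 genes of the Hippo core and Tead factors, 9 were higher in *yap1* Crispants, against 49.6% of all genes, and the median log2 fold change was -0.05. At an unadjusted p under 0.05, 2 were higher (3.64% of all genes) and 1 was lower (1.88% of all genes) with all libraries, and 0 in either direction without replicate 4 (2.16% and 1.3% of all genes). The Hippo kinase gene *lats1* (ENSDARG00000003751) had 18.7, 16.5, 14.1 and 49.7 CPM in *yap1* Crispants, against 9.54, 15.3 and 11.8 CPM in *wwtr1* Crispants, so its log2 fold change of 1.01 was 0.43 without that library. *lats2* had 5.31 to 6.97 CPM, against 4.76 to 10.31 CPM. The genes for the upstream regulator Merlin were level as well, with 8.56 to 9.75 CPM against 8.5 to 12.4 CPM for *nf2a* and 10.1 to 22.2 CPM against 13.3 to 15.6 CPM for *nf2b*.

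The lists of wound and tissue genes cover pathways and cell types of an injured fin, and also organs outside it such as lens, liver and heart. They held 0 DEGs in edgeR, the only possible count, since 0 of all 20979 genes tested were called. Fibrillar collagens and partners, the main fibres of connective tissue, were higher in injured *yap1* Crispants for 12 of 14 genes, 4 at an unadjusted p under 0.05, against 49.6% and 3.64% of all genes, with a median log2 fold change of 0.43 (0.64 without replicate 4). *col1a1a* (ENSDARG00000012405), a type I collagen chain, had 19665, 8400.2, 7834 and 6657 CPM in *yap1* Crispants, against 4761, 4161 and 3053 CPM in *wwtr1* Crispants, with no overlap. The second type I gene, *COL1A1* (ENSDARG00000035809), had 1292, 1016, 714 and 529 CPM, against 333, 411 and 249 CPM.

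The log2 fold changes of the pair were 1.41 and 1.42, with edgeR adjusted p of 0.648 and 0.728. Replicate 1 carried much of the list. Without it the median log2 fold change of the 14 genes was -0.01, and that of *col1a1a* was 0.94. The type V chain gene *COL5A1* (ENSDARG00000012593) had 253 CPM in this library, 30.4 to 81 CPM in the other *yap1* libraries and 27.8 to 52.5 CPM in *wwtr1* Crispants. *SPARC* (ENSDARG00000019353), which encodes a collagen-binding glycoprotein, had 622 to 1005 CPM in *yap1* and 767 to 901 CPM in *wwtr1* Crispants.

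Notochord genes were higher in *yap1* Crispants for 11 of 12 members, 2 at an unadjusted p under 0.05, beside the same 49.6% and 3.64% of all genes, with a median log2 fold change of 0.37 (0.49 without replicate 4). *epyc* (ENSDARG00000056950), a proteoglycan gene of the notochord, had 98.1, 118, 89.4 and 156 CPM in *yap1* Crispants, against 71.2, 105 and 40.4 CPM in *wwtr1* Crispants. *tbxta* (ENSDARG00000101576), the notochord transcription factor, had 122, 139, 137 and 91.5 CPM, against 139, 102 and 69.1 CPM, with overlap. The summed list ran from 864 to 2830 CPM in *yap1*, 775 to 2180 CPM in *wwtr1* Crispants and 411 to 1640 CPM in WT. *wwtr1* replicate 3 was low, and without it the median log2 fold change was 0.12. Markers of other tissues were low in the same library, with 351 CPM of skeletal muscle genes against 2049 and 2229 CPM in the other *wwtr1* libraries, and 33 CPM of heart genes against 136 and 118 CPM. *yap1* replicate 4 was likewise the lowest of its group for notochord (864 CPM), muscle (588 CPM) and heart genes (17.5 CPM). Their part in the notochord values was not tested.

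In the list of fin mesenchyme and blastema, the tissue that rebuilds the fin, 20 of 25 genes were higher, against 49.6% of all genes. At an unadjusted p under 0.05, 2 were higher, against 3.64% of all genes, and 0 without replicate 4. *INHBA* (ENSDARG00000012671), an activin subunit gene, had 4.74, 2.26, 2.51 and 12.5 CPM, against 1.52, 1.89 and 1.68 CPM. *TNC* (ENSDARG00000021948), a wound matrix glycoprotein gene, had 710, 183, 253 and 730 CPM, against 314, 178 and 215 CPM. The median log2 fold change of the list was 0.17, and 0.06 without replicate 4.

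Of 19 proliferation genes, 12 were higher in *yap1* Crispants, against 49.6% of all genes. At an unadjusted p under 0.05, 2 were higher, against 3.64% of all genes, and without replicate 4 only *MCM4* was. *MCM4* (ENSDARG00000040041), a subunit of the replicative helicase, had 111, 104, 73.1 and 440 CPM in *yap1* Crispants, against 31.5, 56.5 and 28.3 CPM in *wwtr1* Crispants, and *MCM7* (ENSDARG00000101180) had 38.9, 18.5, 7.58 and 62.5 CPM, against 9.98, 14.2 and 5.5 CPM, with overlap. Other subunits of the same helicase overlapped more widely, with 112 to 259 CPM against 169 to 267 CPM for *MCM2* (ENSDARG00000102798) and 109 to 178 CPM against 115 to 194 CPM for *MCM5* (ENSDARG00000019507). Besides *MCM4*, the groups did not overlap for the cell cycle genes *CDK1* (ENSDARG00000087554), with 57.1 to 71.3 CPM against 48.7 to 56.7 CPM, and *CCNA2* (ENSDARG00000011094), with 37.1 to 39.9 CPM against 33.9 to 35.6 CPM. These are 3 of 19 (15.8%), against 2.55% of all genes. The median log2 fold change of the list was 0.16, and 0.09 without replicate 4.

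Of the early response and Stat3 genes, *JUN* (ENSDARG00000043531), an AP-1 subunit gene, had 89.6, 48.9, 22.5 and 67.9 CPM in *yap1* Crispants, against 30.7, 31.3 and 14 CPM in *wwtr1* Crispants. *SOCS3* (ENSDARG00000026611), one of 2 genes with this symbol and a feedback inhibitor of Stat3, had 342, 333, 266 and 396 CPM, against 146, 181 and 110 CPM. Of the pair, only *SOCS3* separated the groups, and its log2 fold change was 1.202 (edgeR adjusted p = 0.774). Both were among the 174 genes raised in uninjured *yap1* Crispants. In the early response list 5 of 16 members were higher, against 49.6% of all genes, and the median log2 fold change was -0.13 (-0.09 without replicate 4). Its immediate early genes *ier2a*, with 181 to 188 CPM against 189 to 268 CPM, and *ier2b*, with 10.8 to 18.4 CPM against 18.9 to 21.7 CPM, had every *yap1* library below every *wwtr1* library. These are 2 of 16 members, against 2.58% of all genes. In the Stat3 list 5 of 13 were higher, against the same 49.6%, and the median was -0.13 (-0.05 without replicate 4).

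Of 29 cytokine and chemokine genes tested, 10 were higher in *yap1* Crispants, against 49.6% of all genes. The median log2 fold change was -0.26 (-0.24 without replicate 4). At an unadjusted p under 0.05 there were 0 in either direction, against 3.64% higher and 1.88% lower of all genes. Without replicate 4, 2 were lower at that level, against 1.3% of all genes. The summed list was 272 to 324 CPM in *yap1* replicates 1 to 3 and 446 CPM in replicate 4, against 356 to 413 CPM in *wwtr1* Crispants. *il1b* (ENSDARG00000098700), the main inflammatory cytokine, had 1.21, 0.908, 1.18 and 3.57 CPM in *yap1* Crispants, against 5.5, 2.96 and 2.02 CPM in *wwtr1* Crispants. Its 3 other *yap1* libraries were below all *wwtr1* libraries and replicate 4 was within their range, so the log2 fold change was -1.03 with it and -1.66 without it. The neutrophil lysozyme gene *lyz* (ENSDARG00000057789) had 0.784, 2.49, 2.15 and 1.19 CPM, against 4.19, 4.62 and 1.57 CPM.

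Blood cell lists summed to overlapping levels, with 184 to 204 CPM in *yap1* replicates 1 to 3 against 196 to 266 CPM in *wwtr1* Crispants for macrophage markers and 221 to 390 CPM against 236 to 326 CPM for neutrophil markers. *yap1* replicate 4 was above all of these in both lists, with 1130 CPM of neutrophil markers. Of the symbols listed, 15 of 20 for macrophages and 9 of 13 for neutrophils matched a gene. *mpeg1.1* and *mpx* were among those that did not. Of the 22 macrophage genes so matched, 8 share the symbol *MFAP4*, so counts of macrophage markers lean on that symbol. The neutrophil gene *lyz* was not highest in replicate 4 and made up little of the neutrophil sum, so the sum does not hold for each marker. Cell numbers were not measured in replicate 4. The median log2 fold change of macrophage markers was 0.06 with 13 of 20 higher, against 49.6% of all genes. Without that library it was -0.21 with 2 of 20 higher, against 10219 of 20966 genes. The median of neutrophil markers was -0.42 with 2 of 8 higher, and again -0.42 with 1 of 8 higher without that library, beside the same shares of all genes. At an unadjusted p under 0.05, 1 neutrophil marker was lower, against 1.88% of all genes, and 0 without replicate 4. Erythroid markers had 1 of 9 higher, against 49.6% of all genes, and a median of -0.60 (-0.50 without replicate 4). Of them 0 passed an unadjusted p of 0.05, against 3.64% higher and 1.88% lower of all genes. Erythroid sums were 35.7 to 63 CPM in *yap1* against 55.9 to 133 CPM in *wwtr1* Crispants. Genes of the p53 response, which a Cas9 cut can trigger, were higher for only 1 of 13 members, *PHLDA3* (ENSDARG00000037804), against 49.6% of all genes. The median log2 fold change of the p53 list was -0.23. In it 0 members passed an unadjusted p of 0.05, beside the same 3.64% and 1.88% of all genes. The circadian clock list had 4 of 21 higher, against 49.6% of all genes, and a median of -0.29, or -0.12 without replicate 4.

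Markers of the fin itself were abundant in every library. Epidermal genes summed to 56300 to 108000 CPM in *yap1* and 65400 to 101000 CPM in *wwtr1* Crispants, and fin mesenchyme genes to 33400 to 66400 CPM and 27000 to 35100 CPM, with *yap1* replicate 4 the highest in both lists. *evpla* (ENSDARG00000019808), which encodes the cell junction protein envoplakin, had 169, 244, 230 and 225 CPM, against 244, 322 and 352 CPM. Its log2 fold change was -0.50 (edgeR adjusted p = 0.875). In the intestine list most of the summed level was the peptidase gene *ANPEP* (ENSDARG00000036809), one of 3 genes with this symbol in the list, with 13.5 to 18.7 CPM in *yap1* and 7.26 to 12.1 CPM in *wwtr1* Crispants. Muscle, pigment cell, neuron and endothelium lists had 0 members at an unadjusted p under 0.05 in either direction. The shares over all genes were 3.64% higher and 1.88% lower, at which lists this short can hold 0.

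**Figure D5:**
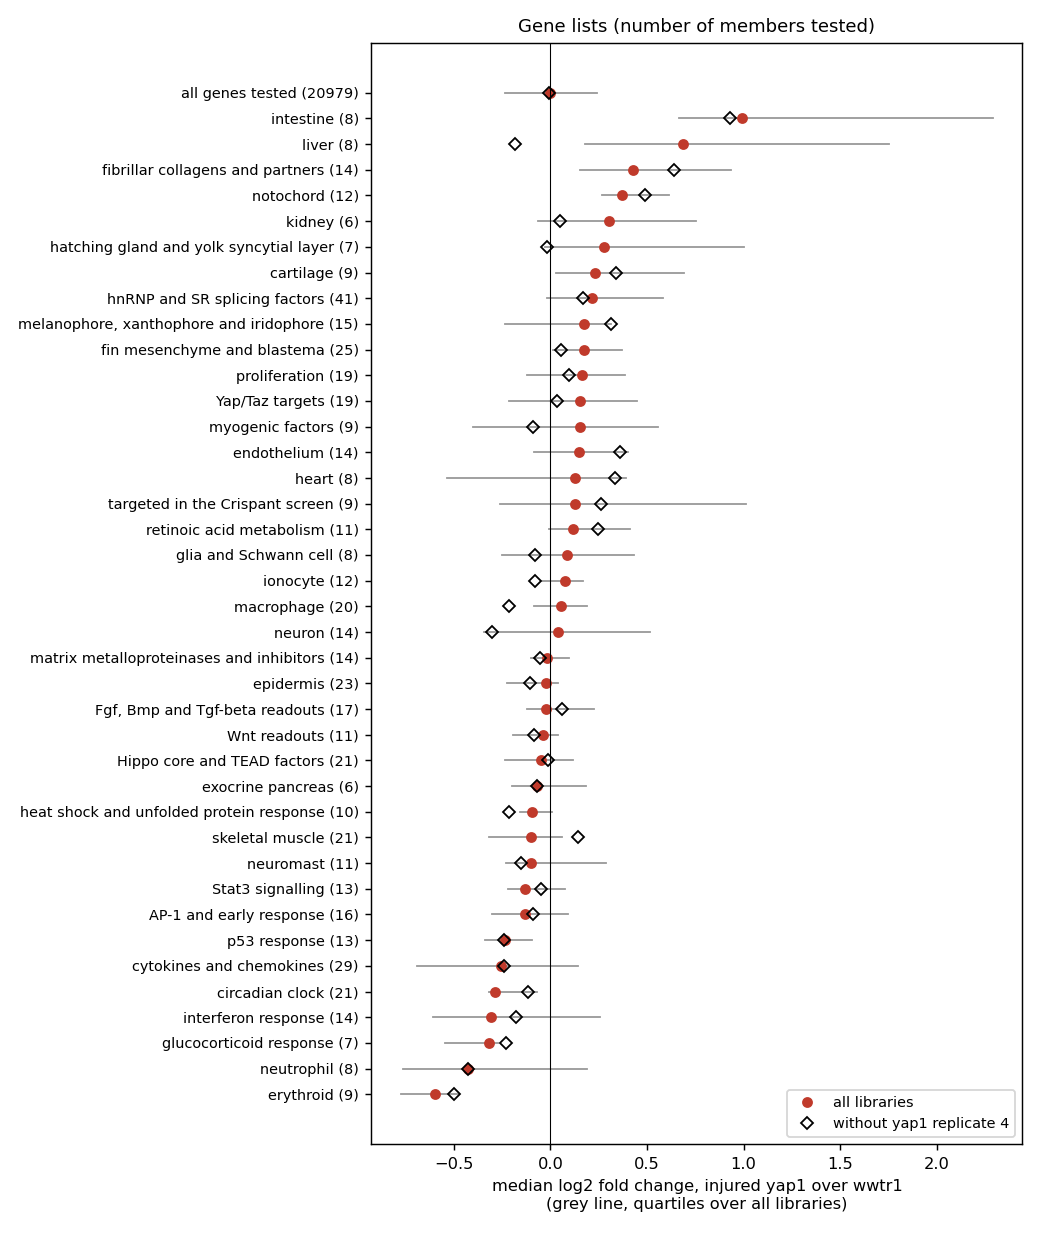
Median log2 fold change of injured *yap1* over injured *wwtr1* Crispants for each gene list (x axis), with the number of members tested in parentheses, with all libraries (filled points) and without *yap1* replicate 4 (open diamonds). Grey lines are quartiles, and the lens and retina lists are left out. Intestine genes (0.99, and 0.93 without replicate 4), fibrillar collagens (0.43) and notochord genes (0.37) lie above 0 under both. The intestine median is over 8 genes, and it was -0.955 in uninjured fins. Most of the summed level of that list was *ANPEP*, so its median rests mostly on genes of low level. The collagen median was not above 0 without *yap1* replicate 1. Liver genes move to the other side of 0 without replicate 4 (0.69 and -0.18), and all genes tested centre on 0.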

How the data were processed

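Per the study's methods, the authors checked reads by FastQC and used Trim Galore for trimming, BWA-MEM for alignment to GRCz11, SAMtools for sorting and HTSeq for counting, and deposited raw counts per Ensembl gene without normalization. Versions and the strand setting are not given in the sources used here, so overlapping genes, antisense genes and close paralogues are uncertain. Of 32520 genes, 4251 had no count in any library, and 29201 matched a symbol, of which 6314 share it with another gene.

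Counts were fitted in R 4.3.3 with edgeR 4.0.16 (filterByExpr, TMM, robust quasi-likelihood, prior count 0.125) over all 19 libraries in 6 groups, with Benjamini-Hochberg adjustment over 20979 genes. DESeq2 1.42.0 was an alternative here, although the study's methods name DESeq2 as their own test. The scripts were tested on simulated data. Other alternatives were RLE size factors, other low-count filters, fewer libraries in the fit, thinned counts, a prior count of 2, the replicate number as a block and each library left out. For distances they were all genes, a prior count of 0.5 and RLE. No 2 libraries of a group agreed within sampling noise.

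The comparison, the gene lists and the tests were chosen with earlier results of these data known. Named genes were the 9 targeted genes, the 6 genes in each direction with the smallest unadjusted p among those with no overlap and a mean of at least 1 CPM, up to 2 genes per list, and the 5 genes highest in *yap1* replicate 4. Genes beyond these were chosen after their values were seen. They are the genes of RNA processing, others from the DESeq2 calls such as *GSK3A*, and further list members such as *CDK1*, *CCNA2*, *ier2a* and *ier2b*. Lists were described by counts and medians, since members were not tested as sets.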

Additional observations from a re-analysis of the deposited data

Results flagged for a closer look

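Of 91 quantities compared over the 4 injured *yap1* libraries (47 genes, 42 list sums and 2 distances), 14 had a library whose gap to the next was a large part of the range. For independent, normally distributed values chance alone would give about 1 in 20. Some of these quantities share genes and some were chosen after the values were seen, so the 14 are a description and not a test. Replicate 4 was that library in 10 of the 14. Its median distance to the other *yap1* libraries was 86.5, against 46.2 for the next library. The lens list summed to 193 CPM there, against 3.07 in the next library, all crystallin genes to 375 CPM against 3.64, photoreceptor genes to 12.9 CPM against 1.79, macrophage markers to 392 CPM against 204 and glial markers to 356 CPM against 188.

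Replicate 4 was also the high library for *MCM4* with 440 CPM against 111, *lats1* with 49.7 CPM against 18.7 and *il1b* with 3.57 CPM against 1.21. So it was for *SHH* (ENSDARG00000038867), with 1.8 CPM against 1.01. This is 1 of 2 genes with that symbol, through which alone it entered the notochord list. Replicate 1 was the high library for *col1a1a* with 19700 CPM against 8400, pigment cell markers with 479 CPM against 151, myogenic factors with 12.3 CPM against 4.16 and genes of retinoic acid metabolism with 953 CPM against 522. What sets these libraries apart was not tested.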

How the results depend on the processing

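The count of DEGs between injured *yap1* and injured *wwtr1* Crispants was 0 in the reported fit and 171 with DESeq2. With a library left out it ranged from 0 to 34, where 34 was without *yap1* replicate 3 and the other 6 were at 0. It was 0 with RLE size factors, both other filters, fewer groups in the fit, an adjusted p alone and thinned counts. The difference of the contrast between injured and uninjured gave 0 DEGs in edgeR under each alternative run and 1 in DESeq2. In counts simulated for this contrast DESeq2 made more false calls than edgeR and also recovered more of the true changes. The simulation used the spread that edgeR had estimated and only the genes past its filter, a setting closer to edgeR than to DESeq2. It also held no outlying library, so it does not rank the tools. What makes them differ on the deposited counts was not tested. With the replicate number as a block both counts were 0, and 713 was the number of genes at an unadjusted p under 0.05, against 1158 without the block. Deviations of same-numbered *yap1* and *wwtr1* libraries correlated at 0.198, 0.103 and 0.088, which cannot tell whether these libraries share a clutch or an injection day. Each of *yap1* replicates 1 to 3 correlated best with its own number. *yap1* replicate 4, which has no match by number, reached 0.086 with *wwtr1* replicate 3, and shared origin was not tested.

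All 12 ranked genes kept their direction and an unadjusted p under 0.05 under each alternative run. They were chosen for a small p and no overlap in the same libraries, so this outcome was largely set by the choice. The distance ratio kept its side, from 0.868 to 0.994. The small log2 fold changes of 3 targeted genes changed sign. *ctgfa* (-0.16) was 0.076 with the block and ran from -0.37 to 0.11 with a library left out, above 0 without *yap1* replicate 4 (0.04) or *wwtr1* replicate 1 (0.11). *ctgfb* (0.13) ran from -0.29 to 0.30, below 0 without *yap1* replicate 1 (-0.29) or *wwtr1* replicate 2 (-0.01), and *nf2b* (0.13) ran from -0.10 to 0.28, below 0 without *yap1* replicate 1. Of 745 values of named genes under alternatives, 706 kept their direction and side of the threshold and 33 passed it only with DESeq2 or without *yap1* replicate 3. *SHH*, *AXL* and *lyz* were not tested with at least 10 counts required in every library. Of 656 list medians under alternatives, 37 moved by more than the spread between libraries. With 3 and 4 pools a group, small differences may have been missed, and no limit of detection was tested.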
